A study of Mus musculus with 6 samples.

Results

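Transcripts of the NRF2 antioxidant response were followed in the distal colon of mice through 10 genes. These were Nfe2l2, Keap1, Gclc, Gclm, Gsr, Gpx2, Txnrd1, Srxn1, Nqo1 and Hmox1, taken by their symbol from a table of 19844 genes, and all 10 were found and expressed. The samples were whole colon tissue from 3 ChREBP knockout mice (KO) and 3 wild-type mice (WT) of the C57BL6 strain. Every mouse of both groups had been given AOM/DSS (azoxymethane, a carcinogen, with dextran sulfate sodium, which injures the colon lining) and was sampled on day 17, so no library shows untreated colon. ChREBP, the product of Mlxipl, is a transcription factor that responds to glucose and binds carbohydrate response elements. Neither the age of the mice nor the design of the knockout allele is stated in the labels.

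NRF2, the product of Nfe2l2, is a transcription factor that cells hold at a low level at rest. KEAP1 binds it in the cytoplasm and presents it to a CUL3 ubiquitin ligase, which sends it to the proteasome. Oxidants and electrophiles modify cysteines of KEAP1, NRF2 then escapes, pairs with a small MAF protein in the nucleus and binds antioxidant response elements beside genes for glutathione synthesis, thioredoxin recycling, quinone reduction and haem breakdown. In the colon this response is best known for protecting the epithelium during inflammation, and Gpx2 is a glutathione peroxidase found chiefly in the epithelium of the gut.

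Poly-A RNA was sequenced and the authors gave FPKM, which divide reads by transcript length and library depth. Depth was estimated from the step that 1 read makes in short non-coding genes and lay between 17575000 and 18400000 reads per library. At that depth about 140 to 200 reads lay behind each value of Hmox1, the lowest of the 10 genes, and about 5780 to 10920 behind each value of Gpx2, the highest. The tissue carried its defining markers, with Epcam between 684.86 and 812.18 FPKM and Hoxb13, a distal colon homeobox gene, between 203.49 and 274.23. The labels call all 6 mice female, but the Y-linked Ddx3y lay between 9.51 and 12.11 FPKM and Xist between 0.02 and 0.04 in the 6 libraries. Mlxipl itself read 3.4, 5.66 and 5.04 FPKM in KO replicates 1 to 3, against 5.84, 7.49 and 7.27 in WT replicates 1 to 3, so its transcript was still present in the KO libraries.

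The start regions of these genes were searched for letters of the elements that NRF2 reads. Printed are 4 of them, because a match to the core of the antioxidant response element was found there. Whether NRF2 binds these matches was not tested. The sequences come from RefSeq on GRCm38.p6, a different build from the mm39 named for the deposited values, and cover 250 bases before to 50 after an annotated start. Of the 10 genes 7 were in that table, with 9 windows, since Txnrd1 has 3 starts. Gclc, Gsr and Hmox1 were not matched. Capitals mark the core TGACNNNGC, searched on both strands, and the AP-1-like TGANTCA, which reads the same on both strands apart from its middle base.
Nfe2l2 (chr2:75704614-75704913, minus strand): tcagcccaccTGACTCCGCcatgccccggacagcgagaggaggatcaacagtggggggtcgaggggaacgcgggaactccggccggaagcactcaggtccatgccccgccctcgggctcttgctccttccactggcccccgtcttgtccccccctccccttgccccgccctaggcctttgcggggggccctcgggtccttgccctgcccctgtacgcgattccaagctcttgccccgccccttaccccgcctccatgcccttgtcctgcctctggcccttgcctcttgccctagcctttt
Gclm (chr3:122245307-122245606, plus strand): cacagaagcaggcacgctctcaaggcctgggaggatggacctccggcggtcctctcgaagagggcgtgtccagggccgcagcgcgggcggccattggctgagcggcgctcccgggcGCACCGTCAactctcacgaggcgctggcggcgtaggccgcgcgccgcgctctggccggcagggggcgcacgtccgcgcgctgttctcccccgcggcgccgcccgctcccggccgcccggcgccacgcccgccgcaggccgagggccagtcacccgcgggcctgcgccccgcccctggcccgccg
Txnrd1, second start (chr10:82858956-82859255, plus strand): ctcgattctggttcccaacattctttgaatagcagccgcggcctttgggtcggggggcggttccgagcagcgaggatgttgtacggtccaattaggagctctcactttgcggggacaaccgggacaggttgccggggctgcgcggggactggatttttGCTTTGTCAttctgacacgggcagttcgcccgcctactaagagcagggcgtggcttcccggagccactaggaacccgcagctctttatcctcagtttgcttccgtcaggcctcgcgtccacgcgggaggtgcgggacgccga
Srxn1 (chr2:152105274-152105573, plus strand): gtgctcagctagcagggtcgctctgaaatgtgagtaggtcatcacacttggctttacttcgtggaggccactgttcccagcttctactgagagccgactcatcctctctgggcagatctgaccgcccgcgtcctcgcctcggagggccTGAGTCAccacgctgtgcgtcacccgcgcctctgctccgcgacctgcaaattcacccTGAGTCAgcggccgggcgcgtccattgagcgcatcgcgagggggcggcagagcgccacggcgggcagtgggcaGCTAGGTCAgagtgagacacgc
The core was found in 4 of the 9 windows, against 12.4% of 32851 windows of the same length in the whole table. Its first base lay at -240 in Nfe2l2, -134 in Gclm, -92 in Txnrd1 and 29 in Srxn1, counted along the gene from the start. Srxn1 also held the AP-1-like letters TGAGTCA at -102 and at -45, and 1.17% of all windows held both motifs. None of the marked matches overlapped another. The windows of Keap1, Nqo1, Gpx2 and the other starts of Txnrd1 held neither, which says only that these letters are not in those 300 bases.

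**Figure D1:**
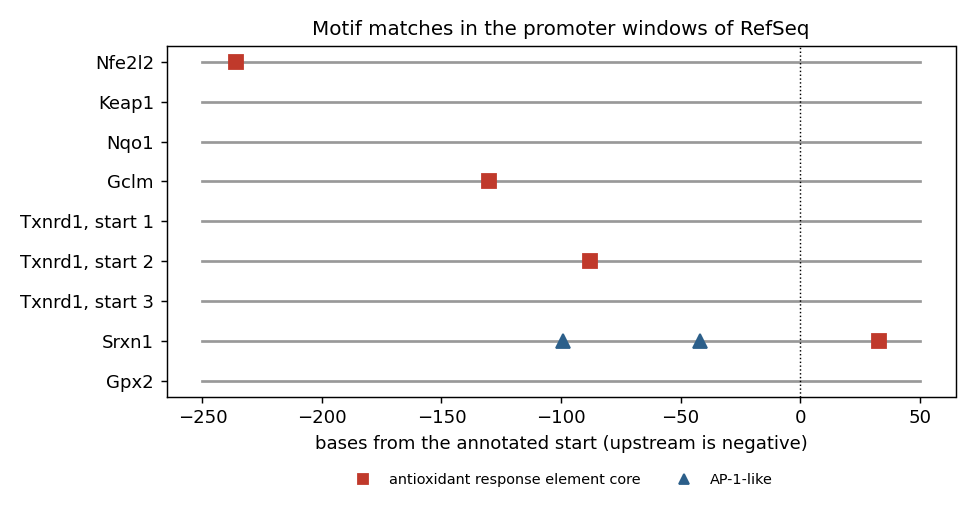
Positions of the motif matches in the 9 start windows, in bases from the annotated start (upstream is negative), one line per window. Squares mark the core of the antioxidant response element and triangles the AP-1-like letters. The core is in 4 windows, and Srxn1 alone among the 9 holds the AP-1-like letters.

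Gpx2 was by far the most abundant of the 10 transcripts. Its mean over the 6 libraries was 430.5 FPKM, above 98.9% of the 13247 genes that reached 1 FPKM in at least 3 libraries and were tested. Nfe2l2 followed at 70.9 and Txnrd1 at 68.8 FPKM, and their ranges over the libraries overlapped. Gsr at 41.8 lay apart from Txnrd1 but overlapped with Srxn1 at 37.3, which overlapped with Gclm at 28.0, and Gclm with Gclc at 27.1. Keap1 at 18.9 lay apart from Gclc and overlapped with Nqo1 at 18.5. Hmox1 was last at 6.15 FPKM, with a mean above 35.7% of the tested genes, and its highest library (7.06) lay below the lowest library of every other gene of the set.

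**Figure D2:**
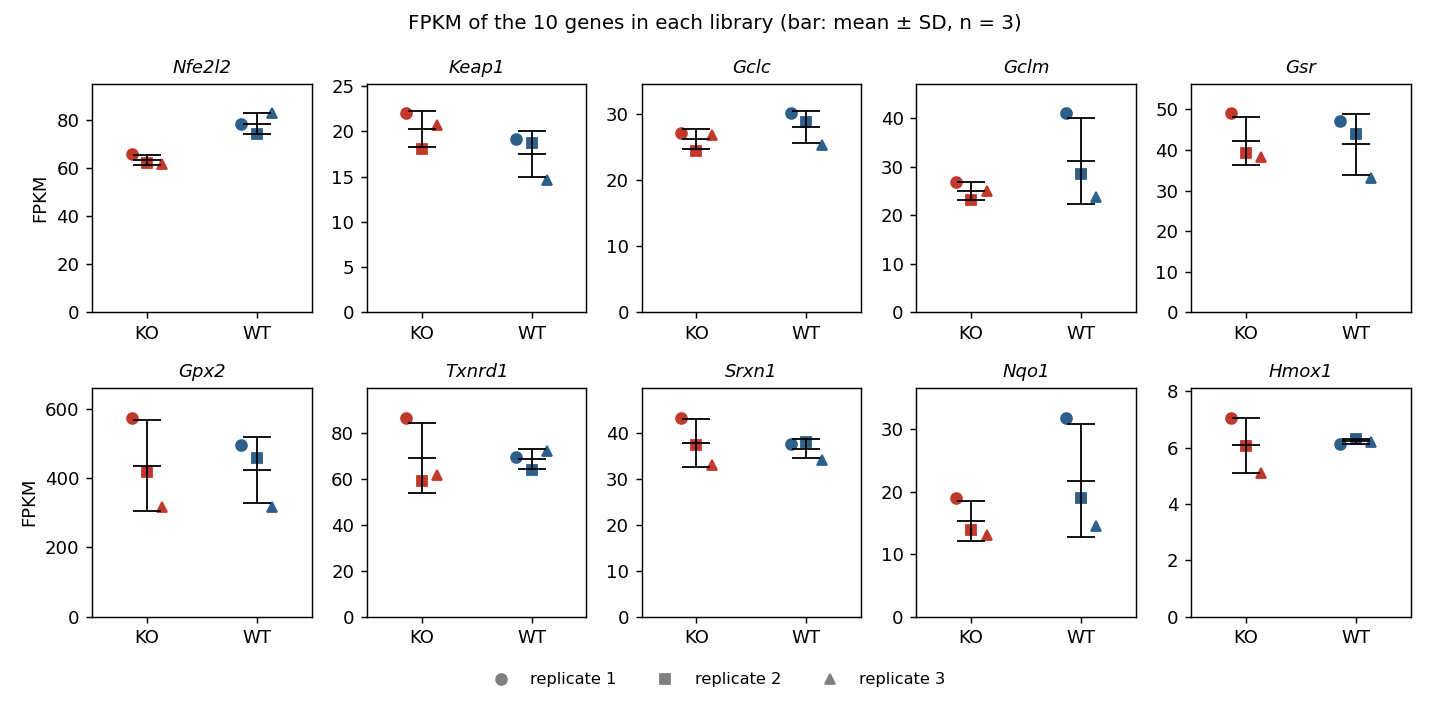
FPKM of each gene in the 3 KO and 3 WT libraries, with the marker shape giving the replicate and the bar the mean ± SD (n = 3 per group). Nfe2l2 is the one gene whose KO libraries (61.92 to 65.72) all lie below its WT libraries (74.05 to 82.78), while the groups of the other 9 genes overlap.

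The comparison of genotypes asked whether loss of ChREBP shifts this response in the carcinogen-treated colon. None of the 10 genes passed the test. In limma on log2(FPKM + 1), with Benjamini-Hochberg adjustment over the 13247 tested genes, 0 of the 10 were called at an adjusted p under 0.05, and each had an adjusted p of 0.9995. Among all tested genes 0.0151% were called. One of the 10, Nfe2l2, had an unadjusted p under 0.05, against 3.4% of all tested genes. Of the 10 log2 fold changes (KO minus WT) 4 were positive and 6 negative, with a median of -0.03, beside 6986 positive and 6261 negative and a median of 0.01 over all tested genes. For 9 of the 10 the 95% interval lay within 2-fold in either direction, and the exception was Nqo1. The same held for 12846 of all 13247 tested genes. With 3 mice per group the exact permutation test of a single gene cannot give a p below 0.1.

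**Figure D3:**
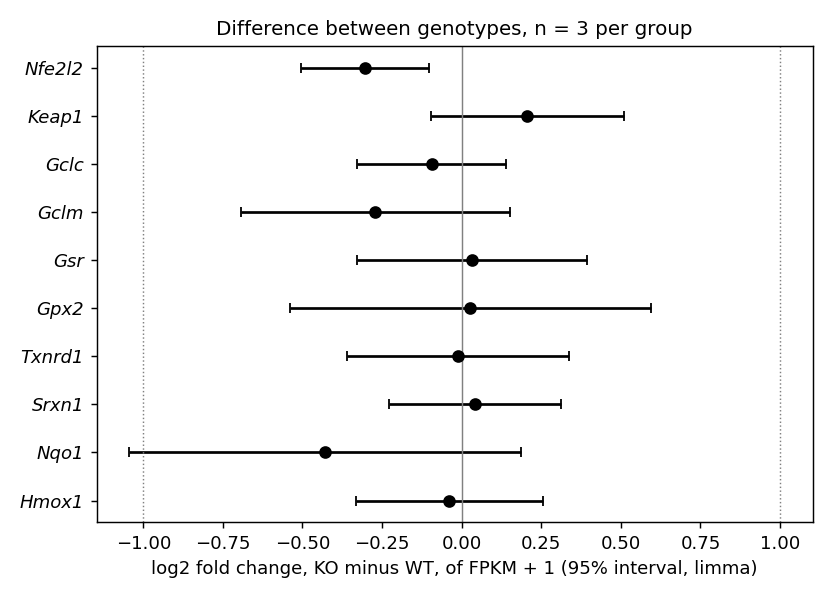
log2 fold change of FPKM + 1, KO minus WT, of each gene with its 95% interval from limma (n = 3 per group); dotted lines mark a 2-fold difference. The interval of Nfe2l2 (-0.51 to -0.10) lies wholly below 0, that of Nqo1 (-1.04 to 0.19) is the widest of the 10, and the other intervals include 0.

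Nfe2l2 and Keap1 are the transcription factor and its cytoplasmic repressor. Nfe2l2 (NCBI gene 18024) read 65.72, 62.36 and 61.92 FPKM in KO replicates 1 to 3, against 78.5, 74.05 and 82.78 in WT replicates 1 to 3. All 3 KO libraries lay below all 3 WT libraries, and the KO mean was 80.7% of the WT mean (63.3 ± 2.08 in KO and 78.4 ± 4.37 in WT, SD, n = 3 each). Its log2 fold change was -0.30 (SE 0.09, 95% interval -0.51 to -0.10), with an unadjusted limma p of 0.0085. The difference did not hold up over all genes (limma adjusted p = 0.9995), and the exact two-sided permutation p was 0.1, the smallest this design allows. It was the one gene of the 10 whose groups did not overlap, while 8.67% of all tested genes had groups that did not overlap and 4.14% had KO wholly lower. Its spread within groups was small, below that of all but 5.6% of tested genes. In bulk tissue, fewer cells that carry a transcript and less of it per cell cannot be told apart. The summed levels of all 11 lists of cell type markers overlapped between the groups, but such sums follow their most abundant genes. Of the 64 single markers 2 did not overlap, both lower in KO, a smaller share than the 8.67% of all tested genes. They were the goblet cell gene Clca1, between 1547 and 1892 FPKM in KO and between 2059 and 2873 in WT, and the stem cell factor Ascl2, between 3.14 and 3.78 in KO and between 4.49 and 5.95 in WT. The groups overlapped for the other goblet cell markers, Muc2, Tff3, Fcgbp and Spdef. The part of cell makeup in the Nfe2l2 difference was not tested.

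Keap1 (NCBI gene 50868) read 21.99, 18.08 and 20.74 FPKM in KO replicates 1 to 3, against 19.17, 18.75 and 14.61 in WT replicates 1 to 3. The groups overlapped, since KO replicate 2 lay below WT replicates 1 and 2. Its log2 fold change was 0.21 (SE 0.13, 95% interval -0.10 to 0.51), which limma did not call (unadjusted p = 0.16, adjusted p = 0.9995). Without WT replicate 3, the lowest library, it was 0.09.

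Glutathione is made, recycled and used by the products of the next 4 genes. Gclc and Gclm encode the catalytic and modifier subunits of glutamate-cysteine ligase, the rate-limiting enzyme of glutathione synthesis. Gclc (NCBI gene 14629) read 27.15, 24.44 and 26.88 FPKM in KO and 30.07, 28.75 and 25.3 in WT replicates 1 to 3. Its groups overlapped, and the log2 fold change was -0.09 (SE 0.10, 95% interval -0.33 to 0.14). Gclm (NCBI gene 14630) read 26.91, 23.11 and 24.97 FPKM in KO and 40.96, 28.42 and 23.86 in WT replicates 1 to 3. WT replicate 1 stood above every other library, and the rest overlapped. The log2 fold change of Gclm was -0.27 (SE 0.18, 95% interval -0.69 to 0.15) and it was -0.06 without WT replicate 1 and -0.44 without WT replicate 3.

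Gsr and Gpx2 work at the other end of the glutathione cycle, Gsr as the reductase that restores reduced glutathione with NADPH and Gpx2 as a selenium-containing peroxidase that spends it. Gsr (NCBI gene 14782) read 48.98, 39.14 and 38.29 FPKM in KO and 47.2, 44.04 and 32.99 in WT replicates 1 to 3. Gpx2 (NCBI gene 14776) read 575.86, 418.78 and 316.11 FPKM in KO and 496.58, 459.48 and 316.15 in WT replicates 1 to 3. In both genes the libraries of a genotype spread more widely than the genotypes differed, and the lowest Gpx2 libraries of the 2 groups were nearly equal. On the log2 scale the fold change was 0.03 for Gsr (SE 0.16, 95% interval -0.33 to 0.39) and 0.03 for Gpx2 (SE 0.25, 95% interval -0.54 to 0.59). Without KO replicate 1 the value was -0.08 for Gsr and -0.19 for Gpx2, and without WT replicate 3 it was -0.12 for Gsr and -0.17 for Gpx2.

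Txnrd1 and Srxn1 keep protein thiols reduced, Txnrd1 as the cytosolic thioredoxin reductase and Srxn1 as sulfiredoxin, which restores overoxidised peroxiredoxins. Txnrd1 (NCBI gene 50493) read 86.65, 58.89 and 61.55 FPKM in KO and 69.73, 63.92 and 72.21 in WT replicates 1 to 3. KO replicate 1 stood above all other libraries and the other 2 KO libraries stood below all WT libraries. The group means were 69.0 ± 15.3 FPKM in KO and 68.6 ± 4.26 in WT (SD, n = 3 each), with a log2 fold change of -0.01 (SE 0.15, 95% interval -0.36 to 0.34). That value was -0.18 without KO replicate 1, 0.09 without KO replicate 2, 0.06 without KO replicate 3, 0.001 without WT replicate 1 and 0.03 without WT replicate 3. Srxn1 (NCBI gene 76650), whose start window held the most motif matches, read 43.38, 37.33 and 32.96 FPKM in KO and 37.66, 37.99 and 34.16 in WT replicates 1 to 3. Its WT libraries lay inside the range of its KO libraries. The log2 fold change of Srxn1 was 0.04 (SE 0.12, 95% interval -0.23 to 0.31), and -0.06 without KO replicate 1 or -0.01 without WT replicate 3.

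Nqo1 and Hmox1 are the classical readouts of NRF2 for quinone reduction and haem breakdown. Nqo1 (NCBI gene 18104), the NAD(P)H quinone reductase, read 19.03, 13.85 and 12.99 FPKM in KO and 31.83, 18.92 and 14.53 in WT replicates 1 to 3. It had the widest range of the 10 genes, 2.45-fold between the lowest and highest library, and the groups overlapped because KO replicate 1 lay above WT replicates 2 and 3. Its mean was 15.3 ± 3.27 FPKM in KO and 21.8 ± 8.99 in WT (SD, n = 3 each). The log2 fold change was -0.43 (SE 0.27, 95% interval -1.04 to 0.19), the lowest of the 10. It was -0.13 without WT replicate 1 and -0.67 without WT replicate 3. Within groups Nqo1 varied more than 95.8% of tested genes. In WT replicate 1 the absorptive colonocyte gene Slc26a3, a chloride-bicarbonate exchanger, was also highest, at 436.25 FPKM against 200.46 to 307.92 in KO and 225.67 and 270.48 in the other WT libraries. Its fellow epithelial markers did not all follow: Epcam was lowest in that library, at 684.86 FPKM, and Car1 was highest in KO replicate 3, at 1039.01. All 11 epithelial markers were detected, and Krt8, Epcam and Car1 gave the largest parts of their sum. That sum lay between 4542 and 5202 FPKM in KO and between 4408 and 5471 in WT, highest in WT replicate 1. The part of these markers in the Nqo1 difference was not tested.

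Hmox1 (NCBI gene 15368), the inducible haem oxygenase, is strong in macrophages that take up red cells. It read 7.06, 6.07 and 5.09 FPKM in KO and 6.14, 6.32 and 6.21 in WT replicates 1 to 3. The WT libraries lay inside the range of the KO libraries, and their spread was small (6.07 ± 0.985 in KO and 6.22 ± 0.0907 in WT, SD, n = 3 each). The log2 fold change was -0.04 (SE 0.13, 95% interval -0.33 to 0.25), and 0.06 without KO replicate 3. The 8 macrophage markers, of which 7 reached 1 FPKM in at least 3 libraries, summed to between 245 and 431 FPKM in KO and between 281 and 405 in WT. Cd163, a haemoglobin scavenger receptor of macrophages, was between 0.37 and 1.27 in KO and between 0.54 and 1.24 in WT. The macrophage sum, carried by Lyz2, C1qa and C1qb, was lowest in KO replicate 1, where Hmox1 was highest. Single markers did not all follow: Csf1r was lowest in KO replicate 3, at 8.33 FPKM, and Adgre1 in WT replicate 2, at 2.05. The part of macrophages in the Hmox1 level was not tested.

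The 10 genes also varied between mice of the same genotype, and in the KO group they did so in a shared direction. KO replicate 1 was the highest of the 3 KO libraries for all 10 genes, whereas it was the highest for 31.1% of all tested genes. This count was made after the values had been seen. It was 10 of 10 with libraries rescaled to the same total FPKM and 9 of 10 with the same upper quartile, Gclc being the exception. Over all tested genes the shares under these scalings were 38.4% and 30.1%. Among the WT libraries replicate 1 was the highest for 6 of the 10 genes and replicate 3 the lowest for 7, against 31.5% and 40.2% of all tested genes. For the 68 tested genes in the lists described next, KO replicate 1 was the highest KO library for 16 and the lowest for 35, which is 51.5% against 37.9% of all tested genes. With the same total FPKM these counts were 20 and 26 (29.4% and 38.2%), against 38.4% and 30.3% of all tested genes. KO replicate 2 was then the lowest for 27 (39.7%), against 45.6% of all tested genes. With the same upper quartile KO replicate 1 was again the highest for 16 and the lowest for 35 of the 68 genes. These shares were 23.5% and 51.5%, against 30.1% and 39.5% of all tested genes.

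Some cell markers also stood apart in KO replicate 1. The 4 markers of crypt base and cycling cells summed to 79.98, 56.59 and 58.26 FPKM in KO and 69.31, 57.24 and 54.54 in WT replicates 1 to 3. The sum was carried by the cycling genes Mki67 and Top2a, with Mki67 at 43.24 FPKM in KO replicate 1 and between 27.84 and 33.97 in the other 5 libraries. Of its crypt base members, Ascl2 was at 3.14 FPKM there, the lowest of the 6 libraries. Lgr5 read 1.87, 1.66 and 1.71 FPKM in KO and 3.3, 2.76 and 1.86 in WT replicates 1 to 3. For Lgr5, KO replicate 1 was thus the highest KO library but lay below WT replicates 1 and 2. S100a8, a calprotectin subunit of neutrophils and of inflamed epithelium, read 6.04 FPKM in KO replicate 1 and between 0.77 and 1.1 in the other 5 libraries. S100a9 read 6.55, 1.99 and 1.31 FPKM in KO and 0.88, 1.35 and 1.11 in WT replicates 1 to 3. The neutrophil marker Csf3r did not follow, at 2.51, 2.58 and 1.06 FPKM in KO replicates 1 to 3. Of the 6 neutrophil markers 4 reached 1 FPKM in at least 3 libraries, and the granule genes Mpo and Elane were at or below 0.19 in all 6 libraries. The sum of the 6 markers lay between 170 and 223 FPKM in KO and between 169 and 236 in WT. Ly6g alone read between 165.07 and 232.83 FPKM, so this sum says little about the other neutrophil markers. The part of these cells in the shared height of the 10 genes was not tested.

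**Figure D4:**
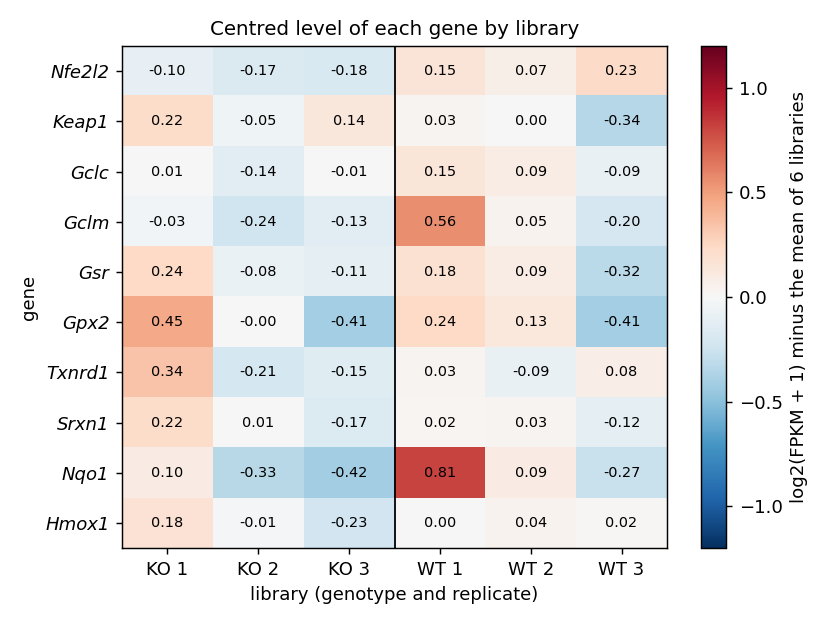
Level of each gene in each library as log2(FPKM + 1) minus its mean over the 6 libraries, KO left and WT right. The column of KO replicate 1 holds the highest KO value in every row (up to 0.45, for Gpx2), and WT replicate 1 stands out for Nqo1 (0.81) and Gclm (0.56).

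The wider pathway was described from 7 lists with 69 genes, of which 68 were tested; Aox1 was below the filter. No gene of any list was called in either direction by limma. An unadjusted limma p under 0.05 was found for 5 of the 68, of which 2 had a higher and 3 a lower KO mean, or 7.35% against 3.4% of all tested genes. The count was 2 without WT replicate 1 and was 3 with no filter or without KO replicate 2. On the log2 scale 40 genes had a positive and 28 a negative fold change, and their median was 0.04, beside 0.01 over all tested genes. In 6 of the 68 (8.82%) the groups did not overlap, a share near the 8.67% of all tested genes. KO was higher in 3 of them (Maff, Mafk and Prdx5) and lower in 3 (Prdx3, Sod2 and Osgin1).

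The regulators and partners of NRF2 had 7 positive and 4 negative values among 11, with a median of 0.04. Maff and Mafk, which encode small MAF proteins that pair with NRF2 and with its competitor BACH1, had the smallest p of the list. Maff read 16.36, 16.93 and 25.27 FPKM in KO and 13.89, 12.67 and 10.74 in WT replicates 1 to 3. All KO libraries lay above all WT libraries, with a log2 fold change of 0.59 (SE 0.18) and an unadjusted limma p of 0.01 that did not hold over all genes (adjusted p = 0.9995). Mafk read 28.23, 29.59 and 29.01 FPKM in KO and 23.51, 25.62 and 23.48 in WT replicates 1 to 3, again without overlap, with a log2 fold change of 0.25 (SE 0.09). The third small MAF gene, Mafg, had a log2 fold change of -0.06 and an unadjusted limma p of 0.58. Rbx1, the RING subunit of the CUL3 ligase, averaged 26.2 ± 2.52 FPKM in KO and 23.5 ± 0.688 in WT.

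Among the other NRF2 targets, which include enzymes of detoxification, 7 of 11 tested values were negative and 4 positive, with a median of -0.24. This list had the lowest median of the 7, and the 3 genes of the lists with an unadjusted p under 0.05 and a lower KO mean were all in it. Cbr3, a carbonyl reductase, read 22.03, 17.4 and 26.27 FPKM in KO and 56.84, 32.01 and 24.9 in WT replicates 1 to 3. Like Nqo1 and Gclm it was highest in WT replicate 1, and its groups overlapped. The log2 fold change of Cbr3 was -0.70 (SE 0.28), and -0.37 without WT replicate 1. Osgin1, an oxidative stress-induced growth inhibitor, read 11.57, 9.63 and 10.46 FPKM in KO and 14.34, 12.86 and 11.78 in WT replicates 1 to 3, without overlap (log2 fold change -0.28, SE 0.11). Ephx1, the microsomal epoxide hydrolase, averaged 14.1 ± 3.71 FPKM in KO and 19.1 ± 2.81 in WT.

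**Figure D5:**
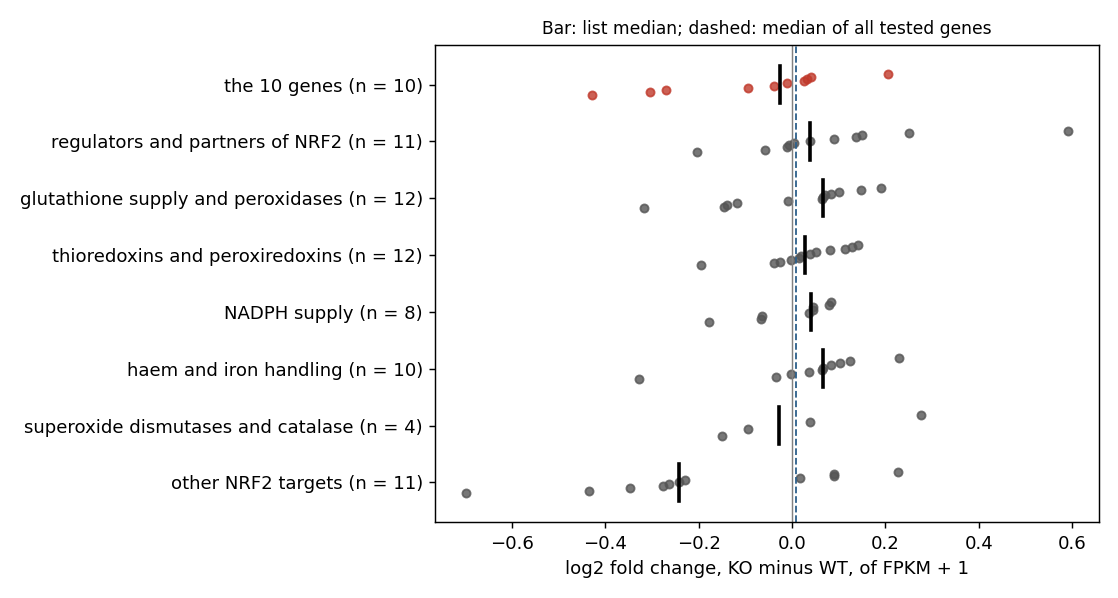
log2 fold changes of FPKM + 1, KO minus WT, for each tested gene of the 10 described first (top) and of the 7 pathway lists, with a bar at each list's median and a dashed line at the median of all tested genes (0.01). The medians lie between -0.24 (other NRF2 targets) and 0.07 (haem and iron handling).

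The remaining lists held no gene with an unadjusted p under 0.05. In glutathione supply and peroxidases 7 of 12 values were positive, with a median of 0.07, and Glrx, a glutaredoxin, averaged 76.4 ± 21.9 FPKM in KO and 93.3 ± 9.57 in WT. Slc3a2, the heavy chain of the cystine importer, was at 30.3 ± 2.27 FPKM in KO and 33.6 ± 2.08 in WT, and Gpx4, which reduces lipid peroxides, at 104.7 ± 15.7 in KO and 93.8 ± 5.47 in WT. Slc7a11, the transporting chain of that importer, was low in all libraries, between 0.58 and 1.4 FPKM in KO and between 0.54 and 1.7 in WT.

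Thioredoxins and peroxiredoxins had 8 of 12 positive values and a median of 0.03. The mitochondrial peroxiredoxin Prdx3 averaged 54.0 ± 5.10 FPKM in KO and 61.8 ± 0.459 in WT, whereas Prdx5 averaged 157.0 ± 4.99 in KO and 142.1 ± 3.50 in WT, and neither pair of groups overlapped. Txnrd3, a reductase of the same family as Txnrd1, was at 3.14 ± 0.502 FPKM in KO and 2.81 ± 0.146 in WT. The enzymes of NADPH supply, which feeds both reductases, had 5 of 8 positive values and a median of 0.04. G6pdx, the entry enzyme of the pentose phosphate pathway, averaged 39.99 ± 2.84 FPKM in KO and 45.4 ± 4.41 in WT. Taldo1 of the same pathway was at 104.5 ± 8.70 FPKM in KO and 98.7 ± 4.90 in WT, and the mitochondrial Idh2 at 42.6 ± 3.03 in KO and 44.6 ± 3.12 in WT.

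Haem and iron genes had 7 of 10 positive values and a median of 0.07. Blvra, which reduces the biliverdin that haem oxygenase makes, averaged 10.1 ± 0.659 FPKM in KO and 8.53 ± 1.07 in WT. Alas1, the first enzyme of haem synthesis, was at 29.5 ± 8.33 FPKM in KO and 36.6 ± 4.71 in WT, and the haem transporter Slc48a1 at 23.5 ± 2.07 in KO and 21.5 ± 1.37 in WT. Superoxide dismutases and catalase split evenly, with a median of -0.03. Extracellular Sod3 averaged 40.4 ± 3.45 FPKM in KO and 33.4 ± 5.54 in WT, mitochondrial Sod2 averaged 20.5 ± 0.859 in KO and 22.8 ± 0.829 in WT without overlap, and Cat averaged 31.95 ± 5.05 in KO and 33.9 ± 1.07 in WT.

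The profiles nearest to Nqo1 and Hmox1 over the 6 libraries were found among 9243 other genes with a mean of at least 5 FPKM, by the root mean square difference of centred log2(FPKM + 1). For Nqo1 they were Herpud1 (0.17), Abhd6 (0.19) and Gsta3 (0.19), each highest in WT replicate 1. Herpud1 read 93.27, 75.73 and 86.05 FPKM in KO and 136.66, 102.84 and 76.81 in WT replicates 1 to 3. Gsta3 belongs to a glutathione transferase family with near-identical copies, so its reads may be shared. For Hmox1 they were Pqlc3 and Dynll1, at 0.03 each, and Atp8a1, also at 0.03. Pqlc3 read 19.73, 17.18 and 15.37 FPKM in KO and 17.94, 18.61 and 17.98 in WT replicates 1 to 3, with the WT libraries inside the range of the KO libraries as for Hmox1.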

How the data were processed

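The deposited FPKM values, given by the authors to 2 decimals with a column for each library, were made from poly-A RNA of 6 colon samples. HISAT2, RSEM and build mm39 appear in the submitters' processing notes, without versions, filters or roles. Library preparation did not mark strand as far as the labels' protocols say, so a gene and an overlapping antisense partner may share reads. Replicates are separate mice, 3 per group in the design text.

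Groups came from the genotype labels. Of 19844 genes, the 13247 that reached 1 FPKM in 3 or more libraries were tested on log2(FPKM + 1), which understates the change of low genes, with limma 3.58.1 in R 4.3.3 (lmFit, eBayes with trend; two-sided; a genotype term alone; Benjamini-Hochberg over all tested genes; threshold 0.05). The fit was tested on simulated data whose changes were 2-fold or larger, which does not cover the smaller differences of the 10 genes. Depth came from 348 non-coding genes of up to 150 bases: with a length offset of -36 bases, 82.0% to 86.9% of 121 to 148 values per library were within 0.05 of a whole read. Reads behind a value used GENCODE M21 transcript lengths. The 10 genes and all lists were chosen with earlier results of these data known. Named were the 10 genes, Mlxipl, up to 3 genes per list by smallest p, and 3 profiles each nearest to Nqo1 and Hmox1; Mafg, Slc7a11 and single markers were named after their values were seen. Alternatives changed the pseudocount, filter, scaling and variance model, added a replicate block or left out a library. Python 3.11.15, pandas 2.3.3 and matplotlib 3.10.9 made tables and figures.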

Additional observations from a re-analysis of the deposited data

How the results depend on the processing

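Each of the 10 log2 fold changes was recomputed under 16 alternatives, 160 values in all. None was called by limma (smallest adjusted p = 0.793), 149 kept their direction and 11 did not. All 11 came from leaving out 1 library and belong to genes near 0. Over the 6 such fits the value ran from -0.19 to 0.24 for Gpx2, -0.12 to 0.13 for Gsr, -0.184 to 0.0907 for Txnrd1, -0.0581 to 0.135 for Srxn1 and -0.139 to 0.0637 for Hmox1. Nfe2l2 ran from -0.34 to -0.26 over all 16, with unadjusted limma p between 0.0043 and 0.031. Over the whole table limma called 2 genes, and 0 with a filter of 5 FPKM, 0 with the replicate block and 0 in every fit that left out 1 library (0 to 0), where between 314 and 802 genes had an unadjusted p under 0.05. The 10 genes and the pathway lists gave 0 calls throughout. Replicate numbers were not taken as pairs in the main fit. Same-numbered KO and WT libraries deviated from their group means with correlations of 0.27, -0.096 and 0.063 across 13247 genes. KO replicate 2 was closer to WT replicate 3 (0.253). The deviations within a group constrain each other, so these correlations cannot settle whether the samples were paired. With the block, 2 of the 10 genes (Nfe2l2 and Nqo1) had an unadjusted limma p under 0.05 in place of 1, and without WT replicate 3 there were 3 (also Gclm). Leaving out a library moved Nqo1 between -0.67 and -0.13, Gclm between -0.44 and -0.06 and Keap1 between 0.09 and 0.28. In the pathway lists the count at an unadjusted p under 0.05 was 5, and between 2 and 6 over the alternatives.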

Other observations

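The ratio of Nfe2l2 to Keap1 FPKM was 2.99, 3.45 and 2.99 in KO replicates 1 to 3, against 4.1, 3.95 and 5.67 in WT replicates 1 to 3, so the groups did not overlap (3.14 ± 0.267 in KO and 4.57 ± 0.952 in WT, SD, n = 3 each). This ratio was formed after the values of both genes had been seen and carries no test. The ratio of Gclm to Gclc, the 2 subunits of glutamate-cysteine ligase, was 0.991, 0.946 and 0.929 in KO replicates 1 to 3 and 1.36, 0.989 and 0.943 in WT replicates 1 to 3, with WT replicate 1 apart from the other 5 libraries.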
